A study of Rattus norvegicus with 9 samples.

Results

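The genes described here are 9 genes of fuel choice, picked by symbol from the gene count table: the fatty acid receptors Ppara and Ppard, their coactivator Ppargc1a, and Pdk4, Pdk2, Angptl4, Cpt1a, Ucp2 and Ucp3, most of which are known targets of these receptors. All 9 were among the 37203 symbols of the table and all 9 passed the filter on low counts, which left 15482 genes for testing. The RNA came from the superior mesenteric artery, the vessel that feeds most of the small intestine, of Sprague-Dawley rats 8 weeks old and weighing 220-240 g. There were 3 libraries from normal rats, 3 from rats at 1 h of ischemia and 3 from rats at 4 h of ischemia. In the study's methods, ischemia followed blood loss through a catheter in the right femoral artery under pentobarbital anaesthesia, and the time was counted from when the model was established. The labels call the control rats normal, and no sham operation or feeding state is given in the sources used here. The labels name artery tissue and no sorted cells, and in such bulk samples fewer cells of a type and less RNA per cell cannot be told apart. Nothing states beyond the 3 rats per group how the libraries relate to single animals, so the p-values measure the spread between these libraries.

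PPAR alpha (Ppara) and PPAR delta (Ppard) are nuclear receptors that bind fatty acids and, paired with a retinoid X receptor, turn on genes for burning fat. During fasting and stress, fatty acids released from fat tissue reach the muscle and the vessel wall, and the receptor targets shift cells from glucose to fatty acids: pyruvate dehydrogenase kinases (Pdk4, Pdk2) switch off the enzyme complex that feeds pyruvate into the citric acid cycle, and Cpt1a lets long-chain fatty acids into mitochondria. Angptl4 is a secreted inhibitor of lipoprotein lipase, and Ucp2 and Ucp3 are carriers of the mitochondrial inner membrane. Pdk4 and Ppargc1a also answer to glucocorticoids, FOXO factors and cyclic AMP.

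The 250 bases before the start of transcription are shown for 3 members, since the values below turn on them: Pdk4 and Cpt1a, which were higher in all libraries at 4 h than in all normal libraries, and Ucp3, which varied most between libraries. The sequences are from RefSeq, build GRCr8, and lie at chr4:34568330-34568579 on the minus strand for Pdk4, chr1:209995910-209996159 on the plus strand for Cpt1a and chr1:164227660-164227909 on the plus strand for Ucp3. Each is read 5′ to 3′ along the gene's strand, and capitals mark matches to the motifs searched.
Pdk4: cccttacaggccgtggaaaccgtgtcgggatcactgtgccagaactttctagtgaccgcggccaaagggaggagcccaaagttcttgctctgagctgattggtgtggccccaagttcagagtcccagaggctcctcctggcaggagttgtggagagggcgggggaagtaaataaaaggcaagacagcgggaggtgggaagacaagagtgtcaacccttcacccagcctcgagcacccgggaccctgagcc
Cpt1a: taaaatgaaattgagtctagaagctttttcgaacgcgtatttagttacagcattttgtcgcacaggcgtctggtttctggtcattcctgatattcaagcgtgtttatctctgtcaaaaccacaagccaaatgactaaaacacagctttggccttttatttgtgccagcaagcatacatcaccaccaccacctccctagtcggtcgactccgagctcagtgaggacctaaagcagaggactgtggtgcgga
Ucp3: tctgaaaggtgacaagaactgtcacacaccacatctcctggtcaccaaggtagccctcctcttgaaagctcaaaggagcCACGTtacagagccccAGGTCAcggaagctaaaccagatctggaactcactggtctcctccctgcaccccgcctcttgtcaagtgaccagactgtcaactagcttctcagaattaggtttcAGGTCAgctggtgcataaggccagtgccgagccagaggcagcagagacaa
The motifs were the single receptor site AGGTCA, its direct repeat with a spacer of 1 base, the glucocorticoid receptor palindrome (AGAACA, 3 free bases, TGTTCT), the hypoxia element core ACGTG, the FOXO site GTAAACA and the cyclic AMP element core TGACG, each on both strands. ACGTG and TGACG can overlap, and the single site is contained in its repeat. Of the 9 members, 8 had a promoter sequence, and Ppard is named only. The single site stood in 1 of the 8, Ucp3, at 2 places (bases 96-101 and 201-206 of the stretch), against 14.1% of 33469 promoters. ACGTG stood in 3 of the 8 (Pdk2, Angptl4 and Ucp3) against 16.6%, and TGACG in 1 (Ppargc1a) against 18.2%. None of the 8 held the repeat, the palindrome or the FOXO site, which 0.0508%, 0.012% and 3.21% of promoters held. These letters are a description of the window and not of binding. Ucp3 and Ucp2 are neighbours on chromosome 1, both on the plus strand, with starts 23.5 kb apart.

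The libraries held 13114273 to 15504240 counts, so that 1 CPM (counts per 10⁶, on normalised library sizes) stood for 12.1 to 17.9 counts, and a count of 0 allows up to 0.168 to 0.249 CPM (3 counts). All 8 smooth muscle and all 8 endothelial markers had counts in every library. The summed CPM of the smooth muscle markers was 10490, 44520 and 45360 in the normal libraries, 23410, 41870 and 11520 at 1 h, and 61760, 44250 and 21760 at 4 h, and that of 8 Schwann cell markers ran from 85 to 2811 in normal artery, 622 to 1347 at 1 h and 247 to 1328 at 4 h, with Pmp2 and Ncmap at 0 in normal replicate 2. The summed CPM of 14 sympathetic neuron markers was 37.7 to 618 in the normal libraries, 8373, 930 and 8601 in replicates 1, 2 and 3 at 1 h, and 37.3, 52.2 and 8434 at 4 h. Of the 14, Dbh, Phox2a and Nefl were at 0 in normal replicate 2 and Snap25 was at 0 in replicate 2 at 4 h. The summed CPM of 9 adipocyte markers was 2795, 652 and 454 in the normal libraries, 2322, 1020 and 2663 at 1 h, and 396, 1212 and 1173 at 4 h, with Lep at 0 in normal replicate 2. Each member is therefore also given without the 3 libraries rich in neuron RNA (replicates 1 and 3 at 1 h and replicate 3 at 4 h), a setting chosen after the data were seen, where that changes its direction. Under this setting the 1 h values rest on 1 library, replicate 2. Its neuron sum of 930 CPM was still above that of every normal library.

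None of the 9 members passed the test (edgeR's quasi-likelihood test with Benjamini-Hochberg adjusted p under 0.05 and a fold change over 1.5) at 1 h or 4 h against normal or between the times. Over all genes 0.0581% passed at 1 h, 0.0904% at 4 h and 0% for 4 h against 1 h, so a count of 0 among 9 is near the background. The members with the smallest p-values against normal were Pdk4 and Ppard, which were higher, and Ppara, which was lower. At an unadjusted p under 0.05, 3 members were found at 1 h where 16.7% of all genes were, Pdk4 and Ppard higher (7.98% of all genes) and Ppara lower (8.67%). At 4 h 4 were found where 12.4% of all genes were, Pdk4, Ppard and Cpt1a higher (5.07%) and Ppara lower (7.35%). For 4 h against 1 h no member did, against 2.58% of genes. Ischemic and normal libraries did not overlap for 2 members at 1 h, both higher. Of all genes 26.3% did not overlap at 1 h, 12.8% higher and 13.5% lower. At 4 h it held for 4 members, 3 higher and 1 lower, and for 18.7% of all genes, 7.93% higher and 10.8% lower. Between the times no member was apart, against 6.24% of all genes. The median log2 fold change of the 9 was 0.55 at 1 h and 0.73 at 4 h, beside -0.0076 and 0.027 over all genes tested. The direction was not shared: 7 were above 0 and 2 below at 1 h, and 5 above and 4 below at 4 h.

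**Figure D1:**
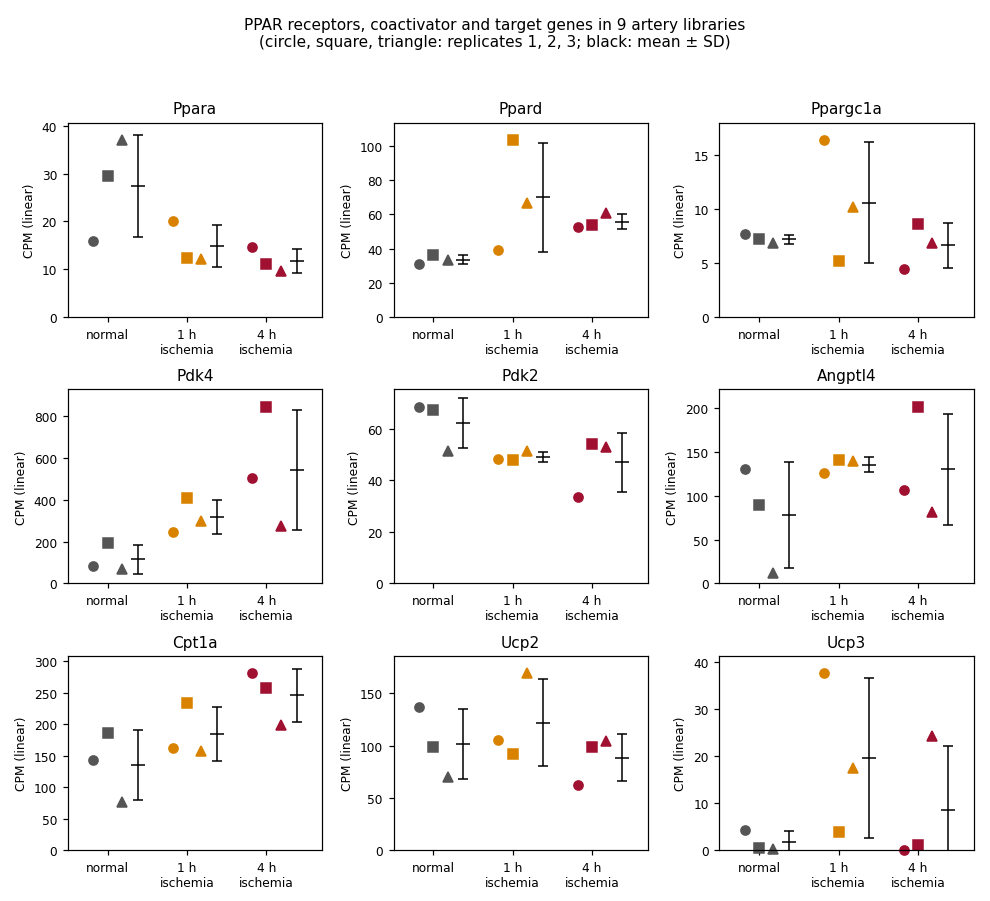
Level of each of the 9 members in every library, in CPM on linear axes from 0, for normal artery and 1 h and 4 h of ischemia, with circles, squares and triangles for replicates 1, 2 and 3 and black bars for the mean ± SD of 3 libraries. Pdk4 lies between 70.9 and 194 CPM in normal artery and between 274 and 844 CPM at 4 h, while Ucp3 is low in most libraries and high in 3.

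Of the receptors, Ppara, the PPAR form that drives fat burning in liver and heart, was lower in ischemic artery. Its level was 15.9, 29.6 and 37.0 CPM in the normal libraries, 20, 12.4 and 12.2 CPM at 1 h and 14.6, 11.1 and 9.64 CPM at 4 h. All 3 libraries at 4 h were below all 3 normal ones, whereas at 1 h replicate 1 lay above the lowest normal library. The mean was 27.5 ± 10.7 CPM (SD, n = 3) in normal artery, 14.8 ± 4.47 at 1 h and 11.8 ± 2.52 at 4 h. The log2 fold change was -0.89 (SE 0.354, edgeR adjusted p = 0.287) at 1 h and -1.22 (SE 0.357, edgeR adjusted p = 0.22) at 4 h, the latter a 2.33-fold lower level. It was below 0 in each alternative fit, and -0.949 at 4 h without normal replicate 3, the highest library.

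Ppard, the PPAR form found in most tissues, the vessel wall included, went the other way. It was at 31.2, 36.1 and 33.4 CPM in normal libraries, a narrow range, at 39.5, 104 and 66.9 CPM at 1 h and at 52.6, 53.9 and 61.1 CPM at 4 h. Every ischemic library was above every normal one. The log2 fold change was 1.06 (SE 0.31, 95% interval 0.348 to 1.77, edgeR adjusted p = 0.228) at 1 h and 0.73 (SE 0.309, interval 0.0272 to 1.44, edgeR adjusted p = 0.385) at 4 h, or 2.08-fold and 1.66-fold. Much of the size at 1 h came from replicate 2, the highest library, without which the log2 fold change was 0.662. DESeq2, fitted as an alternative, gave 1.08 at 1 h with an adjusted p of 0.0457.

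The ratio of Ppard to Ppara counts within a library joins both differences and does not depend on how libraries are scaled. It was 1.96, 1.22 and 0.902 in normal artery, 1.97, 8.37 and 5.5 at 1 h and 3.61, 4.85 and 6.34 at 4 h. It was above all normal values in every ischemic library, by a bare margin in replicate 1 at 1 h. On the log2 scale its mean was 0.37 ± 0.57 (SD, n = 3) in normal artery, 2.17 ± 1.07 at 1 h and 2.27 ± 0.41 at 4 h. The 1 h and 4 h means were 3.47-fold and 3.72-fold over normal, and the 2 times differed by 0.097. This ratio and that of Pdk4 to Pdk2 were chosen after the values were seen because the genes differed in opposite directions, so they are given as a description with no test. They are not corrected for transcript length, so only their differences between libraries are read.

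Ppargc1a, the coactivator that raises mitochondrial content in muscle and brown fat, was low, with 54 to 244 counts in a library. It was at 7.61, 7.15 and 6.80 CPM in normal artery, 16.3, 5.15 and 10.1 CPM at 1 h and 4.46, 8.54 and 6.80 CPM at 4 h. The normal libraries were close to each other and the ischemic ones lay on both sides of them. Its log2 fold change was 0.55 (SE 0.421, edgeR adjusted p = 0.48) at 1 h and -0.12 (SE 0.421, edgeR adjusted p = 0.929) at 4 h. The 2 libraries above normal at 1 h were replicates 1 and 3, which were rich in neuron RNA. Without the 3 such libraries the value at 1 h, which then rests on replicate 2 alone, was -0.467. The part of neuron RNA in this was not tested.

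Of the receptor targets, Pdk4, the kinase that fasting and glucocorticoids raise most in muscle, had the smallest p of the members at 4 h. Its level was 81.5, 194 and 70.9 CPM in normal artery, 247, 406 and 296 CPM at 1 h and 504, 844 and 274 CPM at 4 h. The highest normal library was below the lowest ischemic one at both times, while 1 h and 4 h overlapped. The mean was 115 ± 68.0 CPM (SD, n = 3) in normal artery, 317 ± 81.2 at 1 h and 541 ± 286 at 4 h. The log2 fold change was 1.46 (SE 0.514, 95% interval 0.28 to 2.63, edgeR adjusted p = 0.263) at 1 h, or 2.75-fold, and 2.23 (SE 0.527, interval 1.02 to 3.44, edgeR adjusted p = 0.157) at 4 h, or 4.69-fold. Between the times it was 0.77 (SE 0.506, edgeR adjusted p = 0.856), so 4 h was not above 1 h beyond the spread. The 4 h difference stood between 1.76 and 2.85 when each library was left out in turn, and it was 2.57 without the 3 libraries rich in neuron RNA. It was called in 2 alternatives, DESeq2 with 2.25 (adjusted p = 0.00121) and the edgeR fit with a nerve score as covariate with 2.32 (adjusted p = 0.0229), and over all alternatives the adjusted p ran from 0.00121 to 0.36.

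Pdk2, the kinase form present in most tissues and less bound to fasting, did not follow Pdk4. Its level was 68.5, 67.3 and 51.2 CPM in normal artery, 48.1, 47.7 and 51.2 CPM at 1 h and 33.7, 54.1 and 53.0 CPM at 4 h. Replicates 1 and 2 at 1 h and replicate 1 at 4 h were below all normal libraries, and the other ischemic libraries were within the normal range. Its log2 fold change was -0.35 (SE 0.216, interval -0.841 to 0.147, edgeR adjusted p = 0.393) at 1 h and -0.41 (SE 0.216, interval -0.903 to 0.0858, edgeR adjusted p = 0.481) at 4 h. Within libraries, the ratio of Pdk4 to Pdk2 counts was 1.19, 2.88 and 1.39 in normal artery, 5.15, 8.52 and 5.78 at 1 h and 15, 15.6 and 5.18 at 4 h. No ischemic library came down to a normal one. On the log2 scale the mean ratio was 0.75 ± 0.68 (SD, n = 3), 2.66 ± 0.38 and 3.41 ± 0.90, which is 3.77-fold over normal at 1 h and 6.34-fold at 4 h. The 2 times differed by 0.751.

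**Figure D2:**
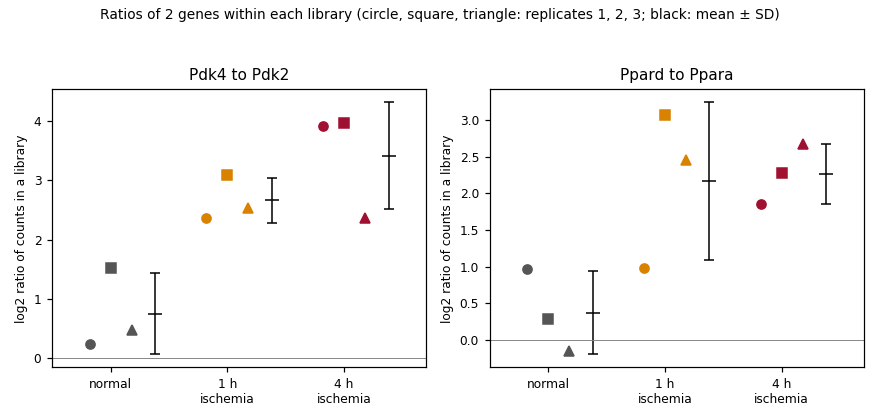
Log2 ratio of counts of 2 genes within each library, Pdk4 to Pdk2 on the left and Ppard to Ppara on the right, with circles, squares and triangles for replicates 1, 2 and 3 and black bars for the mean ± SD of 3 libraries. All ischemic libraries lie above all normal ones in both panels, with replicate 1 at 1 h next to normal replicate 1 in the right panel.

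Cpt1a, the outer membrane enzyme that sets the rate of fatty acid entry into mitochondria, was at 143, 186 and 76.4 CPM in normal artery, 162, 233 and 157 CPM at 1 h and 280, 257 and 198 CPM at 4 h. The 4 h libraries were all above the normal ones and the 1 h libraries were not. The log2 fold change was 0.45 (SE 0.336, edgeR adjusted p = 0.473) at 1 h and 0.86 (SE 0.337, interval 0.0879 to 1.63, edgeR adjusted p = 0.349) at 4 h, or 1.82-fold. Without normal replicate 3, the lowest library, the 4 h value was 0.578. At 1 h and at 4 h, but not in normal artery, the order of the Cpt1a levels was that of the smooth muscle marker sums, and the part of smooth muscle content in the result was not tested.

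Angptl4, which holds back lipoprotein lipase and so keeps fatty acids out of fat tissue in fasting, was at 131, 90.1 and 11.9 CPM in normal artery, 126, 142 and 140 CPM at 1 h and 107, 202 and 81.7 CPM at 4 h. The 1 h libraries were close together, and normal replicate 3 stood far below the other normal libraries. Against normal it differed by 0.80 log2 (SE 0.706, interval -0.814 to 2.42, edgeR adjusted p = 0.545) at 1 h and 0.74 (SE 0.705, interval -0.873 to 2.36, edgeR adjusted p = 0.681) at 4 h. Without normal replicate 3 these were 0.295 and 0.236, so that 1 library carried most of the difference. The same library had the lowest adipocyte marker sum of the normal group, 454 CPM. Replicate 1 at 4 h had a lower sum still, 396 CPM, with Angptl4 at 107 CPM. The part of fat cells in the Angptl4 values was not tested.

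Ucp2, the uncoupling protein of immune and many other cells, was at 137, 98.2 and 69.5 CPM in normal artery, 105, 91.9 and 169 CPM at 1 h and 62.3, 98.4 and 105 CPM at 4 h. The groups overlapped throughout. Its differences from normal were 0.27 log2 (SE 0.338, interval -0.509 to 1.04, edgeR adjusted p = 0.685) at 1 h and -0.20 (SE 0.338, interval -0.972 to 0.579, edgeR adjusted p = 0.837) at 4 h. The 1 h value was -0.118 without the libraries rich in neuron RNA, which leaves replicate 2 alone at 1 h.

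Ucp3, the form of skeletal muscle, heart and brown fat that fasting raises, was near its floor in several libraries. Its counts were 77, 7 and 4 in normal artery, 562, 56 and 284 at 1 h and 0, 13 and 366 at 4 h, or 4.31, 0.511 and 0.295 CPM, 37.6, 3.74 and 17.4 CPM, and 0, 1.08 and 24.2 CPM. The 3 highest libraries were replicates 1 and 3 at 1 h and replicate 3 at 4 h, the same 3 that were rich in neuron RNA. The log2 fold change was 3.49 (SE 1.85, interval -0.751 to 7.74, edgeR adjusted p = 0.339) at 1 h and 2.28 (SE 1.77, interval -1.79 to 6.35, edgeR adjusted p = 0.616) at 4 h, the widest intervals of the 9 members. Without the 3 libraries it was 1.17 at 1 h and -1.6 at 4 h, and with the nerve score as covariate 0.88 (SE 1.15) and 0.775 (SE 1.07). A single library set the direction at 4 h, since without replicate 3 at 4 h the value was -1.68.

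Ucp1, the heat-producing uncoupling protein that defines brown fat, had counts in the same libraries. It was at 0 in all 3 normal libraries, at 85.1, 0.067 and 2.83 CPM at 1 h and at 0, 0 and 36.6 CPM at 4 h. Set against the floor of 0.222 CPM in a normal library, the mean at 1 h, 29.3 CPM, was at least 132-fold higher and the mean at 4 h, 12.2 CPM, at least 55.1-fold higher, and these means rest on replicate 1 at 1 h and replicate 3 at 4 h. Of the 8 brown fat markers, 7 were in the table, and their summed CPM was 29.5 to 36.4 in normal artery, 39.8 to 161 at 1 h and 87.9 to 97.3 at 4 h, with Zic1 at 0 in every library and Elovl3 at 0 in all but normal replicate 1. In replicates 1 and 2 at 4 h the sums were mostly Cidea, a lipid droplet protein, at 92.2 and 82.7 CPM (18.0, 29.8 and 20.4 CPM in normal artery). In these libraries Ucp1 and Cox8b were at 0, and Ebf2 was at 3.72 and 5.14 CPM, below its 6.42 to 17.9 CPM in normal artery. The sum of 97.3 CPM in replicate 3 at 4 h held Cidea at 46.8 CPM, Ucp1 at 36.6 CPM and Ebf2 at 10.9 CPM. Dio2 read 0.112, 0.146 and 0 CPM in the normal libraries and was higher in all 1 h libraries (2.68, 2.21 and 1.41 CPM). Among the 4 h libraries only replicate 3 exceeded its normal range, with Dio2 levels of 0.083, 0 and 2.97 CPM. Cox8b gave 39, 7 and 0 counts in the 1 h libraries (2.61, 0.468 and 0 CPM) and no more than 1 count in any other. The summed CPM of the 10 skeletal muscle markers was 31.0 to 193, 38.3 to 128 and 61.7 to 229 in the 3 groups. Each sum was mostly Acta1, at 16.2 to 145 CPM over the libraries. Myh1, Myh4, Mylpf and Tnni2 were at most 0.396, 0.123, 0.296 and 0.413 CPM in any library, and Myh2 at most 2.51 CPM. Ckm, Myl1, Tnnt3 and Actn3 had counts in every library. The part of brown fat, skeletal muscle or nerve in the Ucp3 values was not tested.

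**Figure D3:**
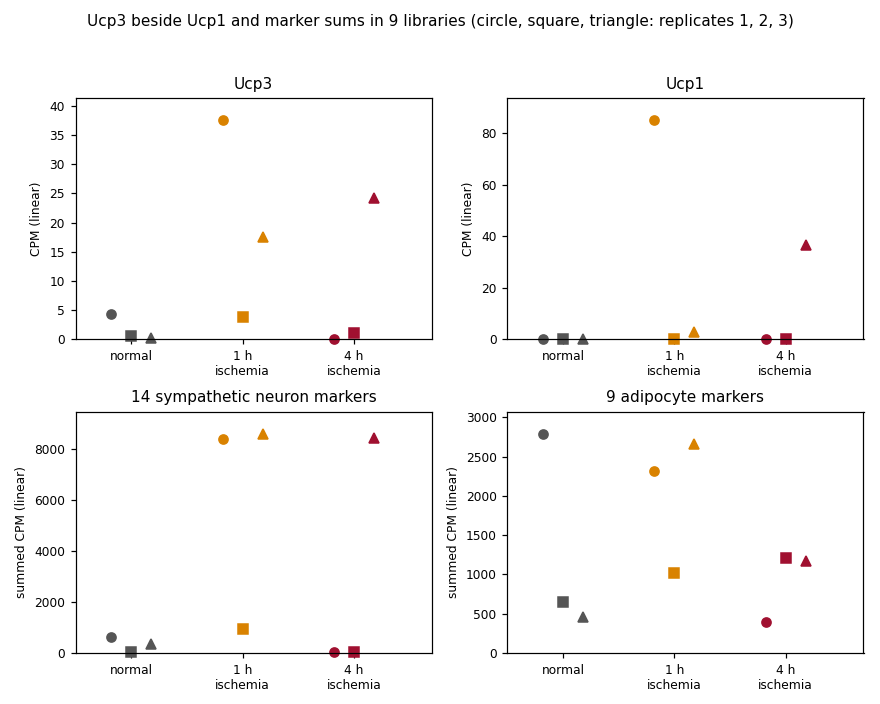
Ucp3 and Ucp1 in CPM and the summed CPM of 14 sympathetic neuron and 9 adipocyte markers in the 9 libraries, on linear axes from 0, with circles, squares and triangles for replicates 1, 2 and 3. The 3 libraries with neuron sums of 8373, 8601 and 8434 CPM are the 3 with Ucp3 above 5 CPM, and normal replicate 1 has the highest adipocyte sum with Ucp3 at 4.31 CPM.

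**Figure D4:**
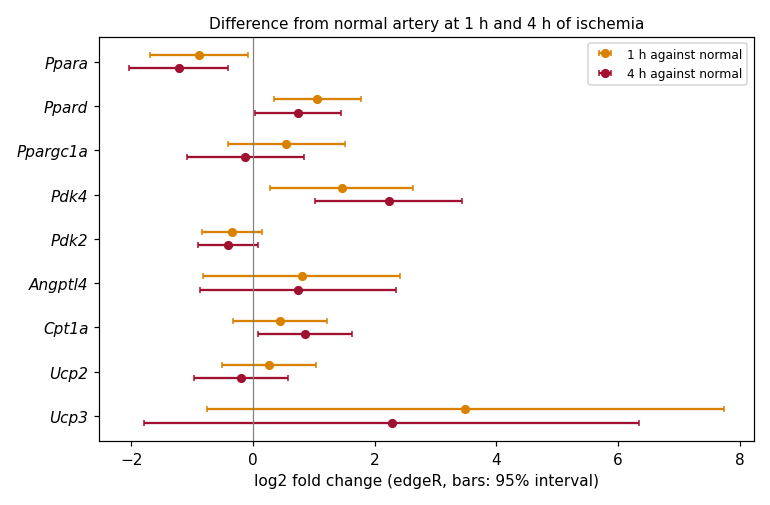
Log2 fold change of each member at 1 h and at 4 h against normal artery from the edgeR fit, with 95% intervals as bars and 3 libraries per group. The intervals of Ppara, Ppard and Pdk4 lie on one side of 0 at both times and that of Cpt1a at 4 h, before any adjustment for the number of genes tested, and both comparisons share the normal libraries.

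Between 4 h and 1 h the log2 fold changes of the 9 members ran from -1.21 for Ucp3 to 0.77 for Pdk4, with 2 above 0 and 7 below and a median of -0.32, beside -0.040 over all genes. Adjusted p-values were 0.856 to 0.98 (edgeR), and no member had its 1 h and 4 h libraries apart. Ppargc1a, with the smallest unadjusted p of the members, had a log2 fold change of -0.67 (SE 0.422, edgeR adjusted p = 0.856).

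The patterns over the 9 libraries were compared with those of 11279 other genes that averaged at least 5 CPM, by the root mean square difference of centred log2 CPM. Closest to Pdk4 were Abr (0.398), LOC102556590 (0.401) and Arrdc3 (0.442), against Pdk4's own spread of 1.09. Closest to Ppard were Akap2 (0.138), Elmsan1 (0.157) and Med13l (0.159), and closest to Ppara Taf1a (0.232), Hoxc6 (0.253) and Zswim3 (0.253). Mphosph10 (0.228) and Hnrnpl (0.243) were among the nearest to Cpt1a, and Angptl4 was nearest to LOC103692397 (0.483), LOC100911299 (0.597) and Txnip (0.627). Ucp3 was nearest to Jakmip2 (0.632), Gria2 (0.665) and LOC102555659 (0.741), of which Gria2 is a glutamate receptor subunit of neurons. Ucp2 was nearest to Ghr (0.121), Osbpl11 (0.161) and Hs2st1 (0.173), Pdk2 to Brcc3 (0.0909), and Ppargc1a to Acss2 (0.275), Ddx58 (0.282) and Prkar2b (0.283). Among the members themselves the closest pair was Pdk2 and Ucp2 (0.343). The member nearest to Pdk4 was at 0.678, to Angptl4 at 0.767 and to Ucp3 at 2.35. Each member was closer to a gene outside the 9 than to any other member.

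The wider fuel pathways were read from 7 lists with 108 genes, members included, of which 107 were in the table and 104 could be tested. Echs1 and Lipg were among those too low to test. None of the 104 passed the test at 1 h, at 4 h or between the times. At an unadjusted p under 0.05 there were 14 at 1 h, 9 higher and 5 lower, and 16 at 4 h, 11 higher and 5 lower. In total this is near the 16.7% and 12.4% of all genes. By direction, 7.98% of all genes were higher and 8.67% lower at 1 h, and 5.07% higher and 7.35% lower at 4 h. The higher list genes at 4 h were above that share and the lower ones below it at both times, which was not tested.

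The pyruvate dehydrogenase list, which holds the kinases, phosphatases and subunits of the complex and the pyruvate carrier, had a median log2 fold change of 0.20 at 1 h and 0.34 at 4 h over 14 genes, 9 above 0 and 5 below at both times. The subunits of the complex that Pdk4 inhibits differed among themselves. Pdha1, the subunit that the kinases phosphorylate, was at 146 ± 19.7 CPM (SD, n = 3) in normal artery, 231 ± 16.6 at 1 h and 229 ± 9.33 at 4 h, with log2 fold changes of 0.67 and 0.65 (edgeR adjusted p = 0.21 and 0.186). Its partner Pdhb was at 60.8 ± 8.05, 88.7 ± 19.8 and 94.1 ± 12.0 CPM, and Dld, the third enzyme of the complex, at 70.1 ± 1.68, 95.5 ± 16.7 and 88.1 ± 2.80 CPM. Dlat, the second enzyme, was at 27.5 ± 1.42, 43.3 ± 13.6 and 34.6 ± 10.6 CPM, and Pdhx, which anchors Dld, at 13.9 ± 1.21, 16.1 ± 2.49 and 13.1 ± 2.71 CPM, both with overlap at 1 h and at 4 h. Pdpr, the regulatory subunit of the phosphatase that reverses the kinases, was at 19.1 ± 1.58, 15.6 ± 1.14 and 9.57 ± 0.59 CPM, with a log2 fold change of -0.99 (SE 0.172, edgeR adjusted p = 0.0721) at 4 h, where all libraries were below normal.

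The list of PPAR receptors, partners and cofactors had medians of 0.061 and 0.011 over 23 genes, 13 above 0 at 1 h and 12 at 4 h. Foxo3, a fasting-response factor that binds the Pdk4 gene in muscle, was at 26.6 ± 8.04 CPM (SD, n = 3) in normal artery, 63.2 ± 11.7 at 1 h and 67.7 ± 12.1 at 4 h, with log2 fold changes of 1.25 (SE 0.26, edgeR adjusted p = 0.161) and 1.35 (SE 0.26, edgeR adjusted p = 0.0919). Pparg, the fat cell form of the receptor, was at 37.0, 10.3 and 4.21 CPM in normal artery, 32.8, 8.69 and 17.5 CPM at 1 h and 4.13, 12.1 and 8.12 CPM at 4 h, highest in the 3 libraries with the highest adipocyte sums (2795, 2322 and 2663 CPM).

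For fatty acid uptake and the carnitine shuttle the medians were 0.48 and 0.11 over 20 genes, 16 above 0 at 1 h and 12 at 4 h. The 1 h median was -0.0111 without the libraries rich in neuron RNA, a setting that leaves replicate 2 alone at 1 h. Under it the 1 h medians of the lipase and ketone lists also turned negative (-0.205 and -0.482). Slc22a5, the carnitine importer, was at 17.6 ± 1.30 CPM (SD, n = 3) in normal artery, 12.5 ± 1.18 at 1 h and 14.3 ± 1.95 at 4 h. The enzymes of fatty acid oxidation had medians of 0.22 and 0.30 over 19 genes, with 15 above 0 at both times. Hadha, a subunit of the trifunctional protein of fatty acid oxidation, was at 154 ± 35.5, 217 ± 44.7 and 253 ± 35.4 CPM, with log2 fold changes of 0.50 and 0.72 (edgeR adjusted p = 0.323 and 0.294). The lipases and droplet coats had medians of 0.47 and -0.076 over 14 genes, and Plin3, a droplet coat, was at 55.2 ± 9.97, 26.7 ± 9.60 and 37.8 ± 14 CPM (log2 fold change -1.05, edgeR adjusted p = 0.26, at 1 h). The ketone body enzymes with Fgf21 had medians of 0.21 and -0.099 over 6 genes, and the uncoupling carriers 0.49 and 0.36 over 8. With Ucp1 set at its bound the medians of the carriers were 0.49 and 0.359. Single libraries set the sign of several list medians at 4 h. Left out in turn, they gave -0.255 (without 4 h replicate 3) to 0.389 (without normal replicate 1) for uptake, -0.134 (without 4 h replicate 3) to 0.435 for the carriers, -0.423 (without normal replicate 3) to 0.606 (without normal replicate 1) for the lipases, -0.326 to 0.182 (without 4 h replicate 2) for the ketone list and -0.0848 (without normal replicate 3) to 0.0947 for the PPAR list. At 1 h the lipase median was 1.35 and the PPAR median 0.39 without normal replicate 1, the PPAR median 0.00881 without normal replicate 3, and the uptake and ketone medians 0.292 and 0.00972 without 1 h replicate 1. The medians of the pyruvate dehydrogenase and oxidation lists were above 0 with any 1 library left out, at 0.153 to 0.299 and 0.146 to 0.303 at 1 h and 0.2 to 0.374 and 0.226 to 0.393 at 4 h. At 4 h a fit by library size alone moved the median of all genes by more than 0.1 to -0.149, and the uptake and PPAR medians to -0.0438 and -0.181, while relative to all genes the uptake median was 0.0839 by the main scaling and 0.105 by library size.

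**Figure D5:**
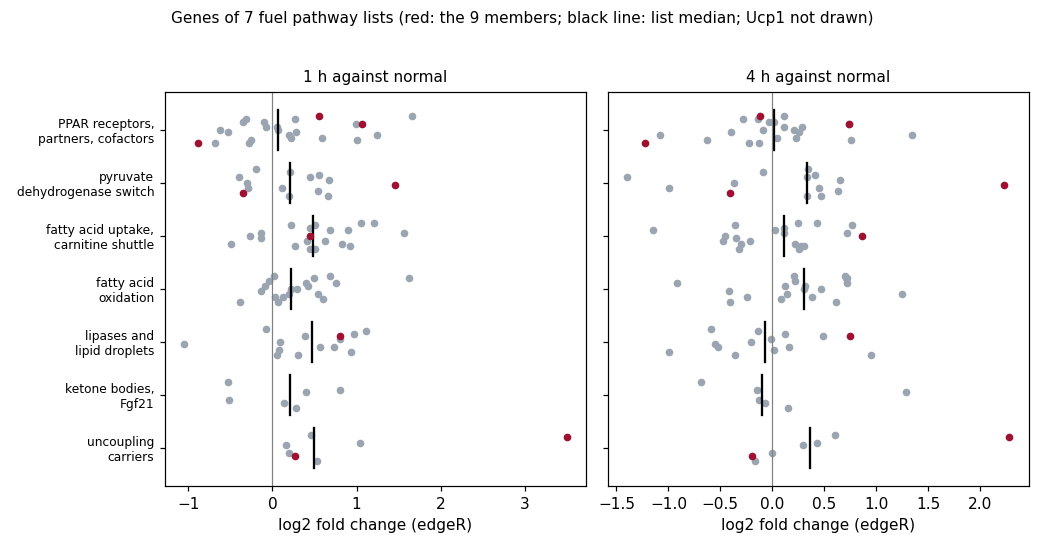
Log2 fold change at 1 h and at 4 h against normal artery of the tested genes in 7 fuel pathway lists, each dot a gene, red for the 9 members and black lines for list medians over 3 libraries per group. Ucp1 is not drawn because it was at 0 in all normal libraries, and list medians lie between 0.061 and 0.49 at 1 h and between -0.099 and 0.36 at 4 h.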

How the data were processed

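The authors deposited one table of whole-number read counts per gene symbol for the 9 libraries. The submitters' processing notes name HISAT2; the counter, genome build, annotation and use of strand are not given in the sources used here. The study's methods also describe array analysis, which does not apply to these counts. Counts of 15482 genes passing filterByExpr were fitted with edgeR 4.0.16 (R 4.3.3, limma 3.58.1): TMM scaling, 1 quasi-likelihood model over all 9 libraries with group only, and Benjamini-Hochberg adjustment over all genes. The common biological coefficient of variation was 51.6%. Levels are CPM on TMM-scaled library sizes. Scripts were tested on simulated data. DESeq2 1.42.0, other scalings, no filter, only the compared groups, nerve or fat scores as covariates, a replicate block and left-out libraries were alternatives.

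Members and lists were chosen with earlier results of these data known. The 9 members, any list gene called, the 6 other list genes with the smallest p in each contrast against normal and the 3 genes of most similar pattern were to be named; Ucp1, Pparg and Acadl were added after their values were seen, and some genes under this rule are not reported here. Floors on counts cover counting error only, while the intervals of log2 fold changes come from the edgeR fit and include its estimate of the spread between libraries.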

Additional observations from a re-analysis of the deposited data

How the results depend on the processing

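With 3 libraries per group and a common coefficient of variation of 51.6%, the edgeR test could miss differences of the size seen for most members. Members called were 0 in each fit except DESeq2, with 1 at 1 h (Ppard) and 1 at 4 h (Pdk4), and the nerve score covariate, with 1 at 4 h (Pdk4, adjusted p = 0.0229). The genes called over the whole table were 702 and 606 (1 h and 4 h) by DESeq2, 17 and 112 with the nerve score, 33 and 104 with the fat score and 4 and 4 with only the compared groups, and leaving out a library gave 0 to 11 at 1 h, 1 to 14 at 4 h and 0 for 4 h against 1 h. Between 4 h and 1 h 0 genes were called by edgeR and by DESeq2, with 400 and 561 at an unadjusted p under 0.05. Of the list genes DESeq2 called 4 at 1 h and 4 at 4 h and the nerve score fit 1 at 4 h. Same-numbered libraries did not vary together throughout. Of 9 such pairs 4 had a correlation over 0.1 (range -0.651 to 0.66), among them the pairs of replicate 2 (0.282 to 0.623). These correlations of a few libraries cannot settle whether the numbers pair them. The fit with the replicate block called 0 members in each comparison and 7 genes at 1 h and 7 at 4 h.

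The log2 fold changes that turned sign, none of them past the test, were at 1 h Ucp2 (-0.038 with the nerve score, -0.14 with the fat score, -0.118 without the 3 libraries rich in neuron RNA) and Ppargc1a (-0.467 without those libraries), and at 4 h Ucp3 (-1.6 without them). For 4 h against 1 h they were Pdk4 (-0.0707) and Pdk2 (0.0266) with the nerve score, Pdk2 (0.081), Angptl4 (0.289) and Ucp3 (0.101) with the fat score, and Angptl4 (0.133), Ppara (0.0603) and Ppargc1a (0.344) without those libraries. Without those libraries the 1 h group was replicate 2 alone. With each library left out in turn, Ucp2 ran from -0.0506 to 0.54 at 1 h and -0.406 to 0.0761 at 4 h, Ppargc1a from -0.35 to 0.0674 at 4 h and Ucp3 from -1.68 to 4.36 at 4 h, and for 4 h against 1 h Angptl4 from -0.522 to 0.186, Pdk2 from -0.176 to 0.102 and Ppard from -0.607 to 0.0728. The cause was not tested.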

Other observations

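Acadl, the long-chain acyl-CoA dehydrogenase of fatty acid oxidation and a PPAR alpha target in liver, was singled out after its values were seen. It was at 103, 193 and 99.6 CPM in normal artery, 238, 220 and 119 CPM at 1 h and 459, 351 and 132 CPM at 4 h. The groups overlapped, with log2 fold changes of 0.54 (SE 0.491, edgeR adjusted p = 0.561) and 1.25 (SE 0.497, edgeR adjusted p = 0.356). Replicate 3 at 4 h was the lowest library at 4 h, as it was for Pdk4 and Cpt1a. At 4 h, but not at 1 h or in normal artery, the order of the Acadl levels was that of the smooth muscle marker sums (61760, 44250 and 21760 CPM at 4 h). The part of smooth muscle content was not tested.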
